A study of Mus musculus with 9 samples.

Results

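The histone genes of the mouse genome that follow DNA replication were examined for binding of the glucocorticoid receptor (GR) in granulosa cells, the somatic cells that nurse the oocyte inside the ovarian follicle. The members were the protein-coding genes of the RefSeq table for build mm10 (assembly GRCm38.p6) whose symbols begin with H1f, H2ac, H2bc, H3c or H4c followed by a number, which gave 67 of 21887 protein-coding genes. They comprised 10 genes for the linker histone H1 and 17, 16, 12 and 12 genes for the core histones H2A, H2B, H3 and H4. A gene was said to have a peak in a library if a peak of that library's list touched the gene or its flanks of 2 kb. These genes had been chosen by their GR and H3K27ac peaks in these same lists, so their counts are a description. GR was mapped by chromatin immunoprecipitation and sequencing (ChIP-seq) in granulosa cells of wildtype CBA x C57BL/6 F1 mice aged 21 days. Each mouse was given 5 IU of eCG (equine chorionic gonadotropin, also called PMSG), which drives follicle growth. After 44 h they were killed (0 h, 2 GR libraries and 1 library of histone H3 acetylated at lysine 27, H3K27ac, found at promoters and enhancers in use) or given 5 IU of human chorionic gonadotropin (hCG), which acts as the ovulatory surge, and killed 6 h later (2 GR libraries). The labels number the replicates without saying whether they came from separate mice. No group at 6 h went without hCG, so hCG and the later time cannot be told apart, and H3K27ac was mapped once, at 0 h only. The other 4 of the 9 samples were not analysed here.

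Histones package DNA into nucleosomes. H2A, H2B, H3 and H4 form the core particle and H1 binds the DNA that enters and leaves it. Replication-dependent histone genes are short, mostly lack introns, lie together in clusters and are transcribed when DNA is copied in S phase. Their mRNAs end in a stem-loop bound by the protein Slbp instead of a poly(A) tail. Their promoters are known for a few short elements, such as TATA boxes, CCAAT boxes, an octamer in H2B promoters that binds Oct-1 and an element with AAACACA in H1 promoters. Granulosa cells divide during follicle growth and leave the cell cycle after the ovulatory surge. GR is a steroid hormone receptor that, when it carries corticosterone, binds DNA as a dimer at an element made of GNACA and TGTNC separated by any 3 bases, or acts through other DNA-bound factors.

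The promoters of 62 of the 67 members were found in the RefSeq table of sequences 250 bases before to 50 bases after each start (GRCm38.p6). Those shown here are the bases upstream of the genes with the strongest GR peaks and of genes that differ from them, written 5′ to 3′ on the strand of the named gene and ending at the base before its start. Capitals mark every copy, on either strand, of the motifs searched. The first of these is the TATA box, TATAAA. The second is the CCAAT box, which reads as ATTGG when it lies on the opposite strand. The third is the octamer ATTTGCAT of H2B promoters. The fourth is the H1 element AAACACA. Further motifs are TTTCCCGC, which E2F factors bind, and TGACGTCA, the cyclic AMP response element. The last is AGAACA, the hexamer that a single GR molecule binds. H1f2 (chr13:23738557-23738806, + strand) and H1f4 (chr13:23622559-23622808, − strand) are the H1 genes with the strongest peaks, and H1f6 (chr13:23695561-23695810, + strand), the testis H1, shares their element but had no GR summit at its start.
H1f2: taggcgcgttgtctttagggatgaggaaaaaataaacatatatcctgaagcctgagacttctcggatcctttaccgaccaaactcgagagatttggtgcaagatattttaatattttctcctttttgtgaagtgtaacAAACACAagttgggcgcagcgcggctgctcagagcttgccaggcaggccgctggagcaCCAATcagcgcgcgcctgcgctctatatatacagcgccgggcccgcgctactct
H1f4: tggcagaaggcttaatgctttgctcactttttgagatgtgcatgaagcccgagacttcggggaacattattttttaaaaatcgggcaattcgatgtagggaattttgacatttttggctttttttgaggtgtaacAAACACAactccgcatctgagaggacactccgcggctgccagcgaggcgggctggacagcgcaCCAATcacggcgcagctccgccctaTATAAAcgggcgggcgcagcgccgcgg
H1f6: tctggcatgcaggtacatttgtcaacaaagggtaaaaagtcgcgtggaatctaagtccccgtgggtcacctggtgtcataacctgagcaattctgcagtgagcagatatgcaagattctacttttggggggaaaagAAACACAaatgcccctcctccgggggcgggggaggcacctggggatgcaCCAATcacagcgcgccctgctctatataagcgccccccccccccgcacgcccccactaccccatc
H4c1 (chr13:23761250-23761499, − strand) and H3c6 (chr13:23562386-23562635, − strand) had the strongest GR peaks of the H4 and H3 genes. The 2 have few motifs in common, since H4c1 holds repeated TTTCCCGC and H3c6 repeated CCAAT.
H4c1: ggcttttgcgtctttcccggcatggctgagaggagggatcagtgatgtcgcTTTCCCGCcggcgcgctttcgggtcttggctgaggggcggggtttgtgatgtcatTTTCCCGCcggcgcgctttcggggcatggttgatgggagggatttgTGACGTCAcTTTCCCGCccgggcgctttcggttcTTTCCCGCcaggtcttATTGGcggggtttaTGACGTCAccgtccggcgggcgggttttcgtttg
H3c6: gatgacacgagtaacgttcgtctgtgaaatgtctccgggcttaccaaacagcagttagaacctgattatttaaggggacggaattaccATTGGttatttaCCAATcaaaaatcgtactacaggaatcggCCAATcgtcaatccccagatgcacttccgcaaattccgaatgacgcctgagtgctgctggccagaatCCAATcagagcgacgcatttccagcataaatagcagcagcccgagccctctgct
The last 3 belong to H2B genes that face an H2A gene and share its promoter. The whole stretch between H2ac11 and H2bc11 (chr13:22042950-22043197, + strand) and between H2ac7 and H2bc7 (chr13:23574208-23574380, − strand) is shown, the first under a peak in all 4 GR libraries and the second under a weak peak in both 0 h libraries only. H2bc1 (chr13:23934157-23934406, − strand) is the testis H2B gene, with neither GR nor H3K27ac.
H2bc11: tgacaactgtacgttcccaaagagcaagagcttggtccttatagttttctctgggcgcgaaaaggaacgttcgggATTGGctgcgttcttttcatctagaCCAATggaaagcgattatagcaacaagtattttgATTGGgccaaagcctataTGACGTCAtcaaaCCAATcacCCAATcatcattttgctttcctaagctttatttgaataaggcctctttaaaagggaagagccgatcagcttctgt
H2bc7: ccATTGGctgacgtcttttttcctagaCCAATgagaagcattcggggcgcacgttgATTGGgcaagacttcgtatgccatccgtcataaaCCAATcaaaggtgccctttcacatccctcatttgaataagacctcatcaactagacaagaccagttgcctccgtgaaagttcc
H2bc1: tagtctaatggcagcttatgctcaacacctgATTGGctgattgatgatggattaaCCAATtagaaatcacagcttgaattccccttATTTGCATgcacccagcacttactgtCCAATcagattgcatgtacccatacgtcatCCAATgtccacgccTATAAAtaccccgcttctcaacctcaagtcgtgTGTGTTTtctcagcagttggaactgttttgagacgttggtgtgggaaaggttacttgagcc
None of the 8 stretches holds AGAACA or the full GR element in these letters.

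Most histone genes had a GR peak in every library. The 4 lists gave a peak to 58 and 60 of the 67 members at 0 h and to 56 and 47 at 6 h, where the same windows around all protein-coding genes had a peak in 39.1% and 36.7% of genes at 0 h and in 43.4% and 30.1% at 6 h. All 4 libraries gave a peak to 47 members (70.1%, against 24.9% of all protein-coding genes), and at least 1 library to 60 (against 47.9%). H3K27ac peaks at 0 h touched the windows of 63 members (94.0%, against 56.4% of all genes). Among genes with H3K27ac, 47 of the 63 members had GR in all 4 libraries, against 43.9% of all such genes. The members are short, with a median span of 496 bp. Of the 1519 other protein-coding genes with a span of at most 1000 bp, 22 (1.45%) had GR in all 4 libraries and 52 (3.42%) had H3K27ac. These short genes thus differ from the members in H3K27ac too, and the part of window size in the counts was not tested.

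**Figure D1:**
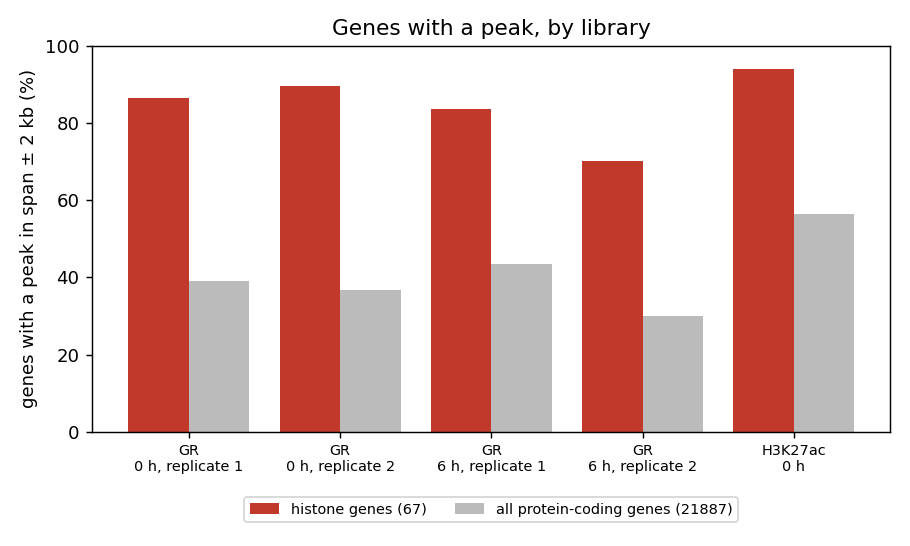
Share of genes (%) with a peak in the gene or its flanks of 2 kb, for the 67 histone genes (red) and all 21887 protein-coding genes (grey), in each GR library and in the H3K27ac library. The red bars stand above the grey ones in all 5 libraries, with 58, 60, 56 and 47 histone genes in the 4 GR libraries and 63 in the H3K27ac library.

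Many members stand close together, so 1 peak often fell in several windows. Counted once, the GR peaks in the windows made 56 loci (a locus being peaks of different libraries that overlap by 1 bp or more), of which 19 lay in the window of 1 member, 27 in the windows of 2 and 10 in those of 3. Of the 56 loci, 34 (60.7%) were called in all 4 libraries, against 26.97% of the 18584 loci of the whole series. A further 10 (17.9%, against 9.85%) were called in every library but the second of 6 h. No locus was missing from 1 of the other 3 libraries alone. The remaining 12 loci were called in 1 or 2 libraries, 4 of them in the first 6 h library alone and 3 in the second 0 h library alone.

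The genes lie in a cluster on chromosome 13 with 53 members, a cluster on chromosome 3 with 10, and 4 single places. On chromosome 13 the members form 4 blocks more than 100 kb apart, and the blocks differed in their peaks. The block from H4c8 to H1f1 holds 29 members, all of which had GR in at least 1 library and 21 in all 4. The block from H2bc13 to H2ac24 holds 17 members, of which 14 had GR and 12 had it in all 4. In the small block from H2ac12 to H2bc11, all 5 members had GR and 3 had it in all 4. The testis pair H2bc1 and H2ac1, which form the fourth block, had no GR and no H3K27ac peak. All 10 members on chromosome 3 had GR in all 4 libraries. Within the block from H2bc13 to H2ac24, the last 5 genes (H2bc23, H2ac23, H4c17, H4c18 and H2ac24) stood apart. H2bc23, H2ac23 and H4c17 had no GR peak in any library, and H4c18 and H2ac24 shared 1 narrow peak of the second 0 h library (fold enrichment 8.90, 202 bp wide). The promoters of H4c17 and H4c18 are 99.0% identical, and reads from such copies are uncertain. How reads with several matches were placed is not known from these sources, and its part in the counts was not tested.

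**Figure D2:**
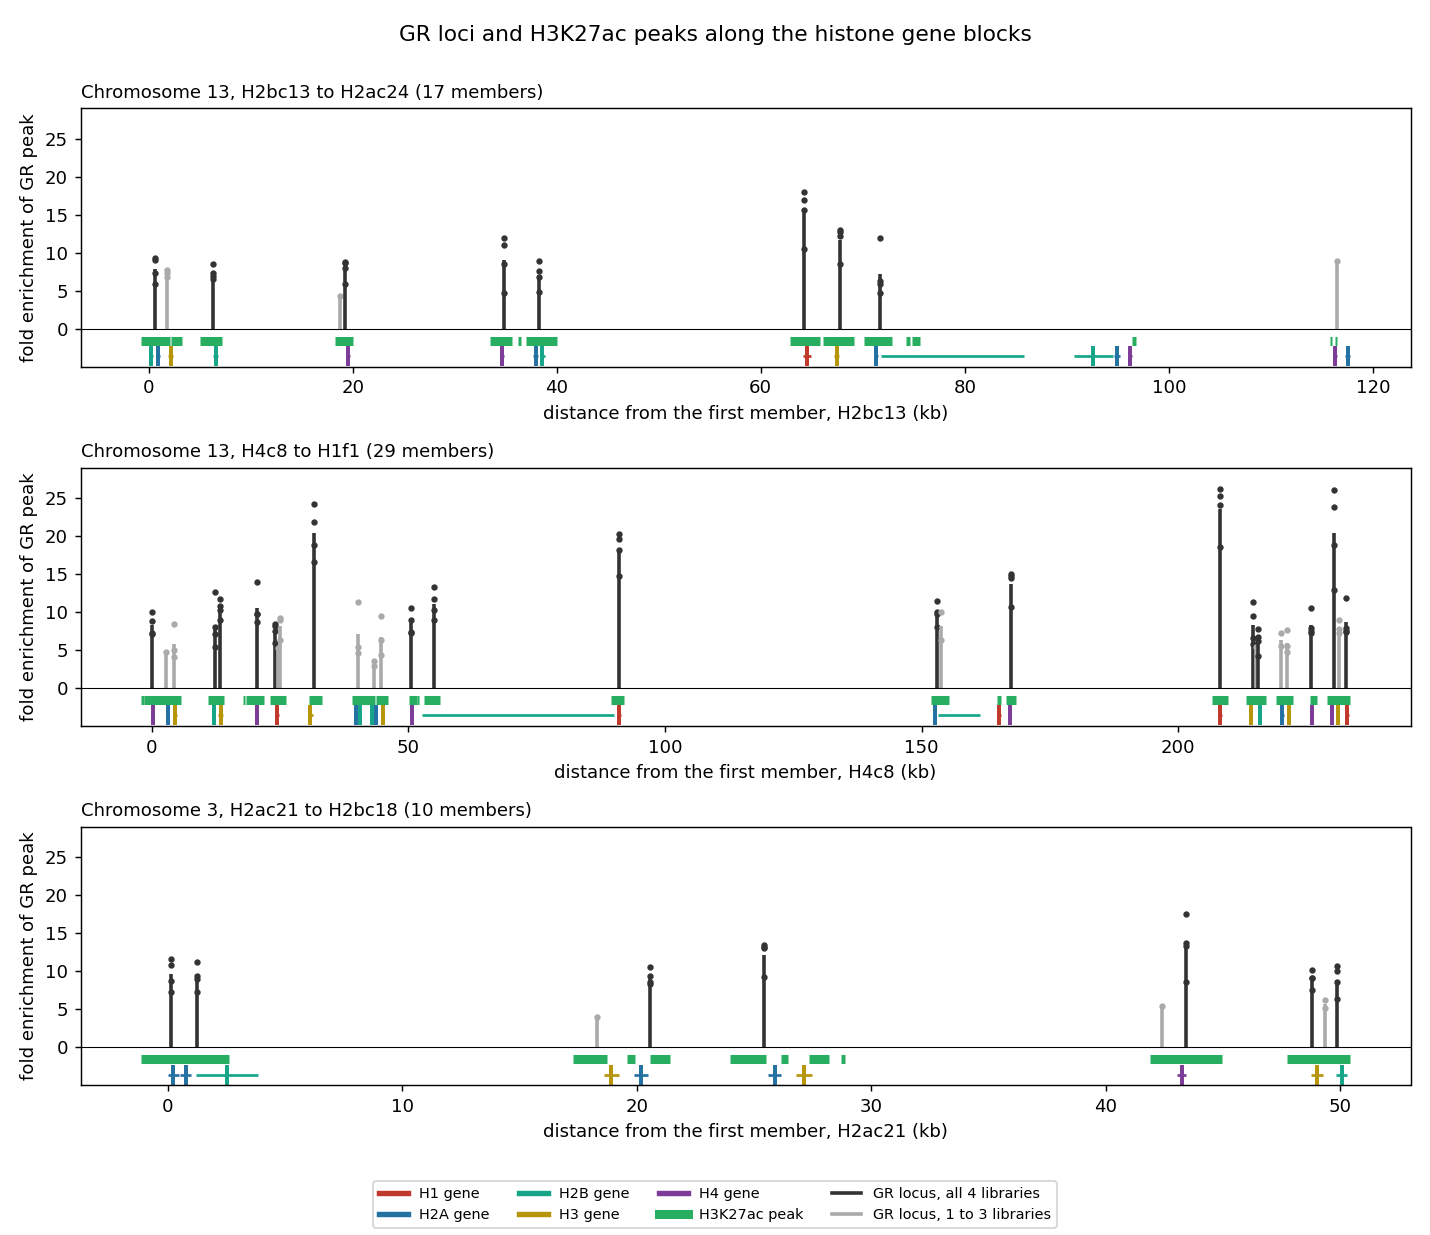
GR loci and H3K27ac peaks along 3 histone gene blocks, with distance from the first member (kb) on the horizontal axis and the authors' fold enrichment of the GR peak on the vertical axis. Lines give the mean over the libraries that called the locus and points each library (dark: all 4 libraries, grey: 1 to 3), green bars are H3K27ac peaks and coloured horizontal lines are gene spans by class, with a tick at the middle of all but the longest. The tallest lines, at H1f2, H4c1, H3c6 and H1f4, all lie in the block of 29 members, and the right end of the block from H2bc13 to H2ac24 has genes with hardly any peaks.

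The linker histone genes had the strongest loci as a class. In each list the authors give a fold enrichment over the background the peak caller estimated, which ranks peaks within that list only. Where 4 values are given, they follow the order of the first and second 0 h and the first and second 6 h library. A median over loci takes only the loci called in that library. Loci whose summit lay within 200 bp of an H1 start numbered 6, all called in all 4 libraries, with median fold enrichments of 13.4 and 13.7 at 0 h and 14.6 and 9.01 at 6 h. The medians of the whole lists were 7.34, 7.68, 7.89 and 6.89. H1f2 (gene ID 50708, chr13:23738807-23739531), an H1 subtype found in most dividing cells, had fold enrichments of 25.3 and 24.1 at 0 h and 26.2 and 18.6 at 6 h. That locus stood above 99.8%, 99.7%, 99.5% and 97.7% of the peaks in the 4 lists. H1f4 (gene ID 50709, chr13:23621777-23622558), a second common subtype, had 19.6, 20.3, 18.2 and 14.7. H1f5 had 16.9, 15.6, 18.0 and 10.6. These 3 were well above their list medians in every library.

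The other H1 genes had lower or no peaks at their starts. At H1f3 the values were 7.49, 8.44, 8.21 and 5.95, and at H1f1 they were 7.41, 11.8, 7.92 and 7.47, near the list medians except for H1f1 in the second 0 h library. H1f1 also has the stronger H4c1 locus in its window. H1f6 is the testis-specific linker histone, and the only GR locus in its window was that of its neighbour H4c3. Its own promoter had no GR summit within 1000 bp, in contrast to the promoters of H1f2, H1f3, H1f4 and H1f5, which carry AAACACA at nearly the same place. Counted from the start, the motif begins at −112, −122, −115 and −117 in those 4 genes and at −114 in H1f6. The start of H1f6 lay just upstream of an H3K27ac peak (chr13:23695837-23696606), and those of H1f2, H1f3, H1f4 and H1f5 inside such peaks.

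H4 genes held the best-ranked locus of all members. The 10 loci at H4 starts, 8 of them in all 4 libraries, had medians of 8.83 and 9.01 at 0 h and 10.5 and 7.24 at 6 h. That locus was at H4c1 (gene ID 326619, chr13:23760795-23761249). By the authors' p-value its peak was number 12 of 10116 and number 7 of 9726 at 0 h, and number 111 of 14746 and 342 of 10588 at 6 h. Its fold enrichments were 23.8, 26.0, 18.8 and 12.9. It was also the one member promoter with TTTCCCGC, of which it has 4 copies, beginning at −199, −144, −89 and −64 from the start, and it has 2 copies of TGACGTCA, at −98 and −34. By mean rank the next H4 starts were H4c3 with 15.005, 14.8, 14.5 and 10.7, H4c8 with 7.10, 8.79, 9.98 and 7.21, H4c4 with 7.42, 8.90, 10.5 and 7.21, and H4c6 with 9.77, 9.70, 13.9 and 8.65. On chromosome 3 the locus over H4c14 had 13.6, 13.3, 17.5 and 8.56, and H4c14 has no entry in the promoter table, so its distance from a start is not given. H4c17 was the only H4 gene without a GR peak.

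All 12 H3 genes had a GR peak, and 9 had one in all 4 libraries, in some cases through a neighbour. At H3 starts there were 8 loci with medians of 6.70 and 8.76 at 0 h and 9.79 and 7.99 at 6 h, the last over the 4 loci called there. H3c6 (gene ID 319151, chr13:23561475-23562385) had 21.9, 24.2, 18.8 and 16.5, far above its own class. H3c11 came next with 12.97, 12.2, 12.8 and 8.50, and H3c13 on chromosome 3 had 9.09, 9.12, 10.2 and 7.47. The locus over H3c7, which also lies in the window of H2bc9 and has no start in the promoter table, had 11.7, 10.8, 10.2 and 8.996. The H3 loci fell into 2 sets. H3c6, H3c11, H3c13 and H3c3 were called in all 4 libraries, and H3c10, H3c8, H3c4 and H3c2 in all but the second 6 h library. In the first 6 h library the second set still had fold enrichments of 7.39, 4.93, 9.42 and 7.60. The strong peak listed for H3c1 is that of H4c1, whose start is near by.

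H2A and H2B genes often stand head to head, with their starts close together. Neighbouring H2A and H2B members with less than 1 kb between them made 11 pairs, and the 9 pairs with both strands known were all divergent, with 163 to 280 bp between the genes. Of the 9, 7 had a GR locus between the genes, 4 of these in all 4 libraries, and the same 7 had H3K27ac there. The divergent pairs without either were H2bc23 with H2ac23 and H2bc1 with H2ac1. H2ac11 and H2bc11 shared a locus with fold enrichments of 11.3, 10.98, 8.58 and 10.8, above every list median. It was the strongest of these loci in every library but the first of 6 h, where the other 4 called there were stronger and H2ac22 with H2bc22 led with 11.9. H2ac7 and H2bc7 shared the weakest, with 2.89 and 3.51 at 0 h and no peak at 6 h, and H2ac12 and H2bc12 had 4.87 and 4.84 at 0 h and none at 6 h. Of the loci near the starts of both an H2A and an H2B gene, 7 and 7 were called at 0 h and 5 and 4 at 6 h. Their medians were 5.85 and 5.95 at 0 h and 9.02 and 6.05 at 6 h, below the list median in every library but the first of 6 h. The 2 weak loci without a peak at 6 h do not enter the 6 h medians.

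Loci at the listed start of an H2A or an H2B gene alone had somewhat higher medians. H2bc21 and H2bc4, 191 and 239 bp from H2ac20 and H2ac6, have no start in the promoter table. The loci that reach between these pairs therefore count as H2A loci here, and the effect on the contrast was not tested. Of the 6 loci at H2A starts, 4, 6, 5 and 4 were called, with medians of 9.67, 8.69, 9.73 and 7.64. Medians over the 5 at H2B starts were 7.32, 8.56, 10.01 and 6.36. By mean rank the first H2A loci were those of H2ac20 and H2ac21 on chromosome 3 and H2ac6 on chromosome 13. H2ac20 had 11.2, 9.03, 9.42 and 7.24, H2ac21 had 8.69, 11.6, 10.8 and 7.24, and H2ac6 had 9.93, 11.4, 9.73 and 8.03. H2ac18 on chromosome 3 is not among the 6, since its summits lay at −227, −209, −259 and −248 bp from the start, and it had 13.02, 13.4, 13.1 and 9.19. Among H2B genes, H2bc6 had 11.7, 10.3, 13.3 and 8.90 at the start nearer to H4c4, and H2bc18 on chromosome 3 had 8.53, 10.7, 10.01 and 6.36. H2bc6 spans 37455 bp in this annotation, up to the neighbourhood of H1f4, so the higher peak in its window is that of H1f4.

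**Figure D3:**
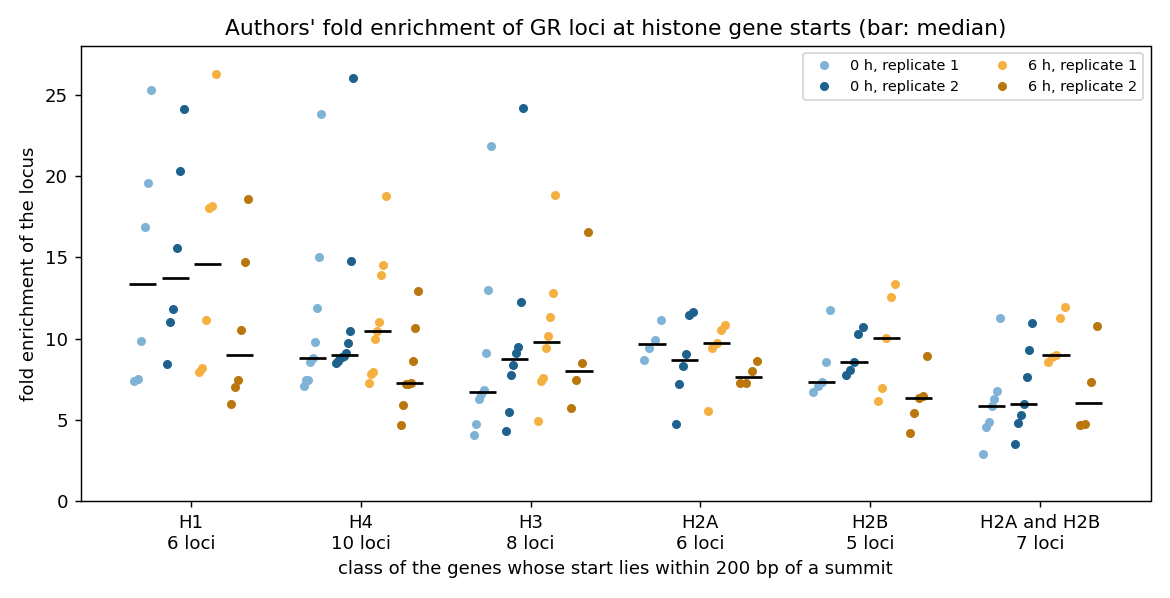
The authors' fold enrichment (linear axis from 0) of each GR locus with a summit within 200 bp of a histone gene start, by class of the gene and by library (points: loci called in that library, bars: medians). The H1 loci have the highest medians, 13.4 and 13.7 at 0 h and 14.6 and 9.01 at 6 h, and single H4 and H3 loci, H4c1 and H3c6, stand far above the rest of their classes.

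**Figure D4:**
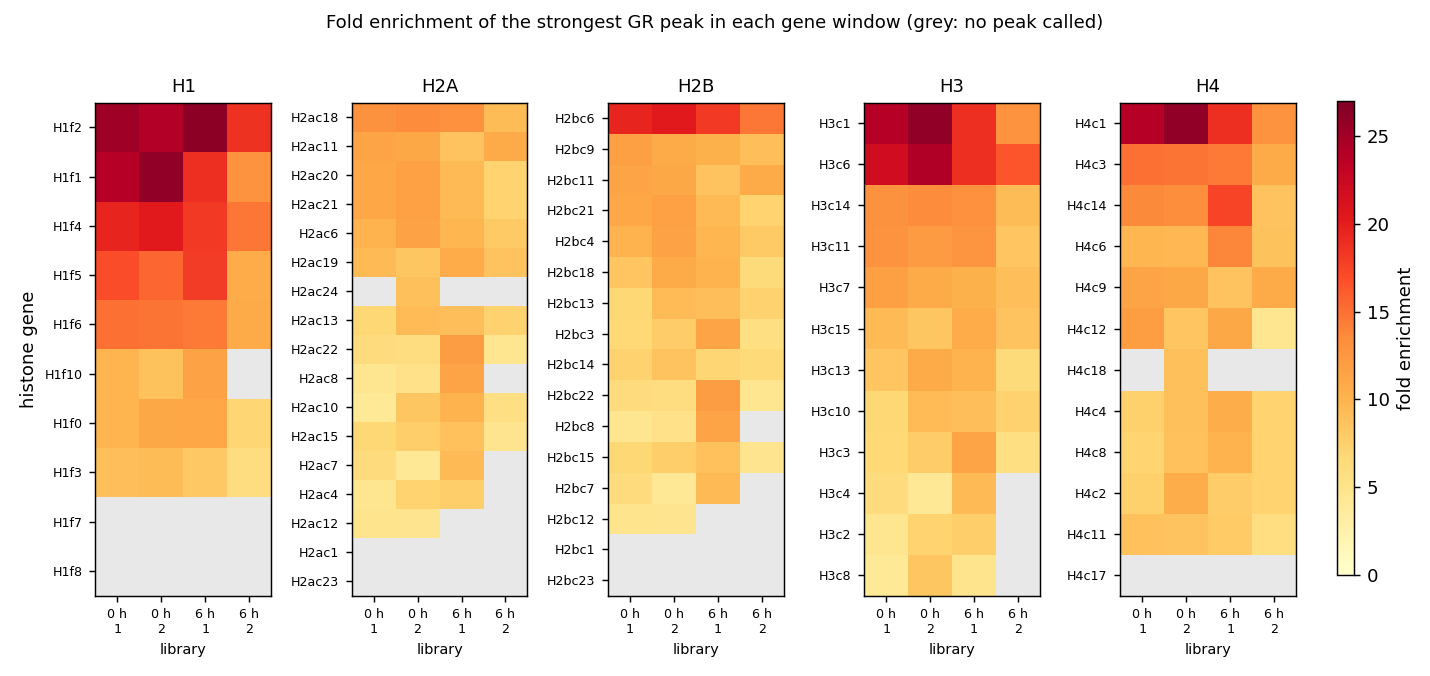
The authors' fold enrichment of the strongest GR peak in each member's window (the gene and 2 kb of flank at both ends), for every member and GR library by histone class; grey means that no peak was called. A peak shared by neighbours appears in several rows, such as the H4c1 peak in the rows of H1f1 and H3c1 and the H1f4 peak in the row of H2bc6, and 7 rows are grey throughout.

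Not all members of the name rule are replication-dependent genes of the clusters. The 4 outside the clusters are H1 genes: H1f0 and H1f10, replacement linker histones expressed without regard to S phase, and H1f7 and H1f8, linker histones of the male and female germ line. H1f0 on chromosome 15 had fold enrichments of 9.86, 11.003, 11.1 and 7.02, and H1f10 on chromosome 6 had 9.87, 8.70 and 11.4 and no peak in the second 6 h library. H1f7 and H1f8 had neither GR nor H3K27ac peaks. Of the 63 members inside the clusters, 46 had GR in all 4 libraries. Within the clusters H1f6, H2ac1 and H2bc1 are testis genes. The members without H3K27ac were thus H1f7, H1f8, H2ac1 and H2bc1, and the members without GR were these and H2bc23, H2ac23 and H4c17. A narrow H3K27ac peak of 387 bp was the one peak near H4c17, H2ac23 and H2bc23.

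GR summits lay at the starts of the histone genes. Of the 62 members with a known start, 49 had a summit within 200 bp of it in at least 1 library, against 37.4% of all protein-coding genes with a known start, and 28 in all 4 libraries, against 13.5%. Without the second 6 h library 36 members had one in the other 3. Where a member promoter had a summit within 1000 bp, the 4 lists gave median distances of 40, 51, 38 and 48 bp. Over all protein-coding genes it was 115, 113, 114 and 127 bp. The summits of the members fell within 100 bp of the start in 71.4%, 75.0%, 68.1% and 70.3% of cases, against 43.9%, 44.9%, 44.3% and 39.6% of all genes. Summed over libraries, 40.5% of 185 member summits lay in the first 50 bp after the start, where 13.04% of the 27016 summits of all genes lay. For all genes the fullest 50 bp began 50 bp further in and held 18.1%. Neighbouring genes share summits and the 4 libraries share sites, so these counts are not independent.

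The position differed by class and was steady between libraries at the strongest loci. At H1f2 the summits lay 4, 53, 39 and 20 bp after the start, at H1f4 47, 47, 38 and 71 bp after it, and at H3c6 at 20, 0, −18 and 10 bp. H4 genes had median distances of 23, 19.5, 9 and 43 bp without regard to side. H4c1 was the exception in its class, with summits at −155, −197, −149 and −163, over the stretch of its promoter shown above that holds the copies of TTTCCCGC. H2A starts had median distances of 109, 83, 88 and 108 bp, the widest of the classes in every library but the first of 6 h, where H2B starts had 101 bp. Most of the H2A summits lay upstream, where the facing H2B gene begins. At H1f0, outside the clusters, the summits lay 143, 138, 116 and 123 bp after the start, further in than at any H1 gene of the clusters.

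**Figure D5:**
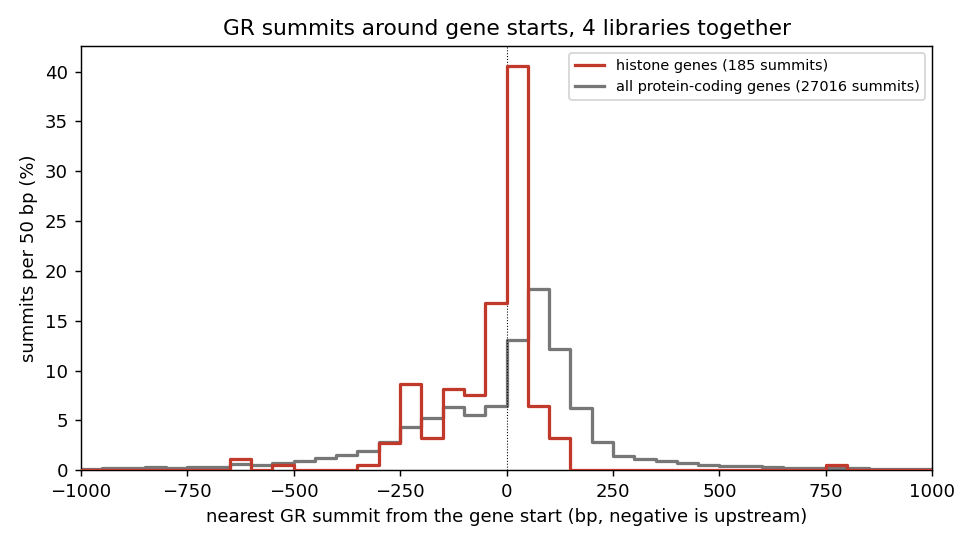
Distance from each gene start to the nearest GR summit (bp, negative is upstream) in 50 bp steps, as a share (%) of summits within 1000 bp, for the histone genes (red, 185 summits) and all protein-coding genes (grey, 27016), the 4 libraries together. The histone genes peak in the first 50 bp after the start with 40.5%, and all genes 50 bp further in with 18.1%.

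The same promoters were acetylated before hCG. All 56 GR loci touched an H3K27ac peak of 0 h (100%, 95% Wilson interval 93.6 to 100, which covers counting error only), against 74.4% of all loci of the series and 98.4% of all loci called in all 4 libraries. With at least 50% of the locus inside an H3K27ac peak required, the share was 98.2%. The windows held 57 distinct H3K27ac peaks, of which 38 (66.7%) held a GR locus, against 36.1% of all 37453 such peaks. The peaks with a GR locus were broad, with a median width of 2685.5 bp, and those without were narrow, with a median of 500 bp and none above 1138 bp. Over the whole list the median was 637 bp. Peaks over 2 kb made up 25 of the 57 (43.9%), against 10.04% of the list, and all 25 held a GR locus. How often the peaks over 2 kb of the whole list held a GR locus was not counted. A broad peak has more room for a locus, so the split by width is not a result about histone genes. The broadest, 7117 bp, ran over H4c8, H2ac10 and H3c8. By class, H3K27ac was found at 8 of 10 H1, 16 of 17 H2A, 15 of 16 H2B, 12 of 12 H3 and 12 of 12 H4 genes. Of the 62 members with a known start, 48 had it inside an H3K27ac peak. The 14 starts outside included those of H2ac18, H2ac19, H3c14 and H3c15 on chromosome 3, genes with near copies next to each other (promoter identity 90.2% for H3c14 and H3c15 and 75.3% for H2ac18 and H2ac19) and whose windows had H3K27ac peaks beside the starts.

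Fewer members had a peak at 6 h than at 0 h in these lists. The mean was 59.0 ± 1.41 members at 0 h and 51.5 ± 6.36 at 6 h (SD, n = 2 each). The 2 pairs of libraries did not overlap. Over all protein-coding genes the shares were 39.1% and 36.7% at 0 h and 43.4% and 30.1% at 6 h, and those pairs overlapped. Neighbouring members share peaks, so a count of members is not a count of sites. The difference was −7.5 members. An exact permutation test of 2 against 2 libraries cannot give a p below 0.33, so it cannot call this difference, and the peaks are among those that chose the members. With the second 6 h library left out it was −3.0, with the first left out −12.0, and −1.0 with the stronger 50% of each list, so its size changed with the library and with weak peaks. That library had narrower peaks over its whole list (median 322 bp, against 374 to 393 bp in the others) and a peak at fewer of all genes, and the part of this in the difference was not tested. The read depth of the libraries is unknown, and a missing peak shows only that the authors' limit was not passed.

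Few loci at histone genes were called in both libraries of 1 time and in neither of the other. A locus called in both 6 h libraries and neither 0 h library was found once, in the windows of 2 members (2 of 67, against 6.13% of all genes). It made up 1.79% of the 56 member loci, where such loci were 15.1% of all loci of the series. It lay at chr3:96269087-96269399, between H3c13 and H2bc18, with fold enrichments of 6.16 and 5.12, and its end was 43 bp from the locus of H2bc18, which was called in all 4 libraries. Loci called in both 0 h libraries and neither 6 h library numbered 2, or 3.57% of the member loci, against 4.15% of all loci. Because neighbours share windows, these 2 loci lay in the windows of 5 members (5 of 67, against 2.52% of all genes). They were the weak loci between H2ac12 and H2bc12 and between H2bc7 and H2ac7, the latter also in the window of H3c4. Leaving out the second 6 h library raised the loci only at 6 h from 1 to 5, and leaving out the first 6 h library raised the loci only at 0 h from 2 to 12. Without the first 0 h library the latter were 5. Fold enrichments of the loci at both times come from lists with different backgrounds, and their change was not tested.

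The member promoters often held the known elements of histone genes. The search covered 63 promoters (H2bc6 has 2 starts) from 250 bases before to 50 bases after the start, on both strands, and 21263 promoters of all protein-coding genes. CCAAT was present in 52 (82.5%, against 38.2% of all), in every H2A (17), H2B (15) and H3 (10) promoter, in 7 of 10 H1 and in 3 of 11 H4 promoters. TATAAA was present in 34 (54.0%, against 12.6%). The octamer was present in 13 (20.6%, against 1.66%), 6 of them H2A and 7 H2B promoters. AAACACA was present in 9 (14.3%, against 6.15%), 5 of them H1, and TGACGTCA in 4 (6.35%, against 2.23%). The GR hexamer AGAACA was present in 13 (20.6%, against 16.2%), in 12 of the 49 promoters with a GR summit within 200 bp and in 1 of the 14 without. The same counts were 30 and 4 for TATAAA, 41 and 11 for CCAAT, 11 and 2 for the octamer and 6 and 3 for AAACACA. As shares, all of these but AAACACA were higher with a summit, so such a split was not particular to AGAACA. The full GR element was in none of the 63, and in 0.442% of all promoters. AAACACA, TTTCCCGC and TGACGTCA were added to the search after the sequences had been seen. Facing H2A and H2B genes share the stretch between them, so 1 copy of a motif can count in the promoters of both genes. This was so for the octamers of H2ac12 with H2bc12, H2ac8 with H2bc8 and H2ac1 with H2bc1. It also held for TGACGTCA at H2ac11 with H2bc11, AAACACA at H2ac1 with H2bc1 and AGAACA at H2bc13 with H2ac13. Copies of TATAAA and CCAAT between facing genes were shared in the same way. The counts are thus of promoters and not of separate copies. A match is a run of letters only, AGAACA can lie inside a full element, and no match says nothing about sites outside these windows. Apart from the stretches that facing genes share, most promoters were unlike each other, with a median identity of 46.2% over 1953 pairs of promoters. The 2 pairs above 90% were H4c17 with H4c18 and H3c14 with H3c15. Facing H2A and H2B genes were not among these 2, so this identity did not register the stretch they share on opposite strands.

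Other genes that serve the same process were looked up by lists of named genes. For comparison, GR in all 4 libraries was found at 24.9% of all genes and at 43.9% of genes with H3K27ac. Of 9 genes for histone variants, listed here as replication-independent, 7 (77.8%) had GR in all 4 libraries and all 9 had H3K27ac. H3f3b, which encodes the variant H3.3, had fold enrichments of 21.9, 22.3, 24.4 and 14.8, below H1f2 and H4c1 at 0 h and between them at 6 h, and H2ax, the variant that is phosphorylated at DNA breaks, had 13.5, 15.5, 16.8 and 9.54. Of 13 genes for histone mRNA synthesis and processing, all with H3K27ac, 6 (46.2%) had GR in all 4 libraries, near the 43.9% of genes with H3K27ac. The strongest of these was Slbp, the stem-loop binding protein, with 13.2, 14.8, 14.9 and 9.89. Npat, the coactivator of the histone clusters, had 5.44, 6.98 and 8.73 and no peak in the second 6 h library. Of 14 histone chaperone genes, all with H3K27ac, 8 (57.1%) had GR in all 4. They were led by Ssrp1, a subunit of the FACT complex, with 22.0, 21.0, 17.3 and 13.2. Of 21 genes for S phase entry and DNA replication, 7 (33.3%) had GR in all 4 libraries. This was above the 24.9% of all genes but below the 43.9% of genes with H3K27ac and the 70.1% of the histone genes. All 21 had H3K27ac (against 56.4% of all genes), and 4 (Pola1, Mcm2, Mcm3 and Mcm5) had a locus only at 0 h (against 2.52%). A further set, the cytosolic ribosomal protein genes (median span 3175 bp), had GR in all 4 libraries at 75 of 81 (92.6%), so frequent GR was not particular to histone genes.

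The genes between the histone genes were mostly without peaks. Of 51 other protein-coding genes inside the chromosome 13 cluster, many of them vomeronasal receptor genes of the Vmn1r family, 1 (Zfp322a) had GR in all 4 libraries, 5 had GR in any and 5 had H3K27ac. None lay within the chromosome 3 cluster. Of the 77 tRNA genes in the chromosome 13 cluster, 11 had GR in at least 1 library and none in all 4, where 107 and 9 of all 408 tRNA genes did. Of the histone genes that the name rule does not match, H4f16, an H4 gene, had 13.7, 14.9, 16.6 and 11.8. H2aw had 6.27, 7.58, 7.54 and 6.03, and H2bu2 had neither GR nor H3K27ac. H4bc24 had only the peak of 8.90 in the second 0 h library that also lies in the windows of H4c18 and H2ac24. It is counted among the 51 other genes above, in the 5 with GR and the 5 with H3K27ac.

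Member windows held 50, 53, 56 and 37 peaks of the 4 lists. Their median fold enrichments were 8.15, 8.90, 9.42 and 7.28, above the medians of all peaks in each list. Of them, 10, 9, 8 and 4 were in the strongest 10% of their list. The tissue label was checked by H3K27ac at marker genes, which was found at 10 of 10 granulosa markers, 2 of 4 theca, 2 of 6 oocyte, 2 of 5 leukocyte and 2 of 4 endothelial markers. Theca genes Insl3 and Enpep and oocyte genes Zp2, Zp3, Bmp15 and Nlrp5 had none. The same held for leukocyte genes Ptprc, Cd3e and Csf1r and endothelial genes Tie1 and Kdr. Theca genes Cyp17a1 and Ptch1, oocyte genes Zp1 and Gdf9, leukocyte genes Cd68 and Itgam and endothelial genes Pecam1 and Cdh5 had a peak. Over all protein-coding genes the share with H3K27ac was 56.4%. How much of the signal at histone genes came from other or from dividing cells was not tested.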

How the data were processed

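ChIP-seq peak lists of 5 libraries were used. Reads were aligned with Bowtie2 2.4.5 to mm10 and peaks called with MACS2 (version not given in the sources used here), both per the submitters' processing notes, with 1 list per library. The deposited GR lists give each peak a position, a summit, a score, a fold enrichment (ratio) and −log10 p- and q-values, all made by the authors. The weakest peaks had −log10 p of 9.00 to 9.10, per the deposited values. The deposited H3K27ac list gives positions only. Read depth is not given, so precision rests on the number of libraries and of peaks.

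Peaks off chromosomes 1 to 19, X and Y were dropped and GR peaks overlapping by 1 bp or more merged into loci, with Python 3.11.15 and pandas 2.3.3. Gene spans and promoters came from RefSeq tables of GRCm38.p6. The planned exact permutation test over libraries (scipy 1.17.1) cannot pass a threshold with 2 against 2, and no call rests on it. Shares have 95% Wilson intervals. The overlap and merging steps were tested on simulated data. The members and lists were chosen with earlier results of these data known. Named with values were the 4 loci per cluster and per class that ranked best on average by the deposited p-values, loci at 1 time only, members outside the clusters and members without peaks, and up to 4 genes of each other list. Npat, Pola1, Mcm2, Mcm3, Mcm5, H1f1, H1f6 and other members beyond this rule were named after their values were seen. Alternatives changed the window, peak strength, merging, list length and libraries. The pooled inputs and the libraries of progesterone receptor genotypes were left out because the members' rule names the other 5.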

Additional observations from a re-analysis of the deposited data

How the results depend on the processing

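Of 78 alternative values, 71 kept the result within the limits set, 7 moved and none reversed. The members with GR in all 4 libraries were 47, ranged from 36 (no flank, or the stronger 50% of each list) to 50 (5 kb to each side), and were 47 to 56 when a library was left out. The loci called only at 6 h numbered 1 in the main analysis. They were 0 with the stronger 50% of each list, with peaks up to 500 bp apart merged, and with lists cut to 9726 peaks, and 1 to 5 when a library was left out. The loci called only at 0 h numbered 2, were 1 with lists of 9726 peaks and 2 to 12 when a library was left out. Both classes can only grow when a library is left out, since 1 call fewer is then required. The difference in members with a peak, −7.5, was −12.0 to −3.0 when a library was left out. With the replicate number as a block, it was −2 in replicate 1 and −13 in replicate 2 (mean −7.5), and an exact sign-flip test of 2 pairs cannot go below 0.5. The labels do not say that the numbers pair the samples. Members with a summit near the start in all 4 libraries, 28, were 21 within 100 bp, 36 within 500 bp and 28 to 36 when a library was left out, alternatives chosen after seeing the data. Unknown read depth limits what a missing peak shows.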
